A study of Mus musculus with 28 samples.

Results

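The 8 genes described here, Bco1, Rbp2, Lrat, Rdh7, Aldh1a1, Cyp26b1, Isx and Rarb, act in the absorption of vitamin A and in retinoid metabolism. They were taken by gene name, and all 8 were found among 29413 genes of the BMP table and among 55416 genes of the TGFb table. RNA-seq had been done on organoids, which are epithelial cultures grown in a gel from intestinal crypts, here from wild-type C57BL/6 mouse small intestine. All organoids started in ENR medium with neither a Bmp nor Tgfb, and the treated ones then received 1 recombinant ligand at 500 ng/ml for 24 h. The BMP table held 4 untreated control samples, 4 samples with BMP2 and 3 samples each with BMP3, BMP4, BMP5 or BMP7, while the TGFb table held 3 untreated and 3 Tgfb samples of its own. The labels do not say whether samples came from separate mice or cultures, so p-values measure the spread between these samples, which may be technical.

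Dietary vitamin A reaches the enterocyte as retinyl esters and as carotenoids. Bco1 cleaves beta-carotene to retinal, Rbp2 binds retinol and retinal inside the enterocyte, and Lrat esterifies retinol for export in chylomicrons or for storage. Retinol dehydrogenases such as Rdh7 oxidise retinol to retinal, Aldh1a1 oxidises retinal to retinoic acid, and Cyp26b1 breaks retinoic acid down. Retinoic acid acts through nuclear receptors that include the product of Rarb, itself a textbook target gene, and it induces Isx, an intestinal homeobox repressor of Bco1 and of the carotenoid receptor gene Scarb1.

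The 3 promoters below are shown because they hold, just before the start site, the letters that nuclear receptors are known to read. Each run is the 250 bases before the RefSeq start site in GRCm38.p6, written 5′ to 3′ on the strand of the gene. Capitals mark a DR5 repeat in Rarb (the type of element through which retinoic acid receptors are known to act), a DR1 repeat in Bco1 and the reverse complement of AGGTCA in Rbp2.
Rarb, chr14:16575477-16575726, minus strand: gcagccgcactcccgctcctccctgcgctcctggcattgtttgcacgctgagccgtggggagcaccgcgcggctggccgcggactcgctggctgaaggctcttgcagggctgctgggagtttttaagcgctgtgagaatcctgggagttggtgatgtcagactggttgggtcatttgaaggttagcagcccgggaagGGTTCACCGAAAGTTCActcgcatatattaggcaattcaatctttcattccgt
Bco1, chr8:117095615-117095864, plus strand: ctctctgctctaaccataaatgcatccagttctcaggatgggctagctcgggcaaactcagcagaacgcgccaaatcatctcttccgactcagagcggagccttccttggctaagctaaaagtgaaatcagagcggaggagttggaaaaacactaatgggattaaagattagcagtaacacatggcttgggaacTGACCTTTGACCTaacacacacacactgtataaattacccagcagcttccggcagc
Rbp2, chr9:98490287-98490536, plus strand: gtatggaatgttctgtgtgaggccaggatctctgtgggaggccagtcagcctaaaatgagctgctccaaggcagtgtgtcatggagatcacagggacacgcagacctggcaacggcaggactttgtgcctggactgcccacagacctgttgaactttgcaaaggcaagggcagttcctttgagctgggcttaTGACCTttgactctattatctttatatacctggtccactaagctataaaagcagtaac

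All 8 genes matched a RefSeq promoter. The window searched ran from 250 bases before to 50 bases after the start site, on both strands, and 32817 promoters of the same length served as the background. DR5 was found in Rarb, from -53 to -37, and in 0.0975% of all promoters. DR1 was found in Bco1, from -56 to -44, and in 0.222% of all promoters. AGGTCA stood in Bco1 (inside the DR1) and in Rbp2 (from -58 to -53), and in 16.3% of all promoters. TATAAA was found in Bco1, Rbp2 and Cyp26b1 and in 13.6% of all promoters. DR2 (0.268% of promoters), GGCGCC (11.9%), GTCTAGAC (0.213%), CAAAGTCCA (0.475%) and TAATTA (5.3%) were in none of the 8 windows. A match is a description of letters and was not tested for binding.

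The level per transcript length could be ordered in the TPM values of the untreated TGFb-table organoids. Rbp2 stood highest at 1057 ± 168 TPM (SD, n = 3), followed by Aldh1a1 at 141 ± 18.1, Isx at 46.5 ± 9.42 and Rdh7 at 18.0 ± 0.917. Bco1 at 2.59 ± 0.899 and Lrat at 2.45 ± 0.252 overlapped and had no order between them. Cyp26b1 at 0.217 ± 0.106 TPM and Rarb at 0.0702 ± 0.0354 were the lowest. The retinol carrier and the retinal dehydrogenase thus led the order, and the breakdown enzyme and the receptor closed it.

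Rdh7, Aldh1a1 and Isx fell with BMP2 and rose with BMP4, and the other genes were called with at most 1 of these ligands. With BMP2, 5 of 8 fell (Lrat, Rdh7, Aldh1a1, Rarb and Isx) and 0 rose, where 38.4% of all genes tested were lower and 36.8% higher. With BMP4, 5 of 8 rose (Rbp2, Rdh7, Aldh1a1, Cyp26b1 and Isx) and 0 fell, where 33.7% of all genes were higher and 31.4% lower. With BMP5, 4 of 8 fell (Lrat, Rdh7, Aldh1a1 and Bco1) and 0 rose, where 9.87% of all genes were lower and 16.5% higher. With BMP5, 1455 of all genes were lower with every sample in, 713 without BMP5 III, 825 without BMP5 VI, and 2593 (17.6%) with the replicate number as a block. With BMP7, 3 of 8 fell (Lrat, Rdh7 and Bco1) and 0 rose, where 13.2% of all genes were lower and 19.2% higher. The share of lower genes with BMP7 was 8.19% without BMP7 II, and 21.3% with the block. With Tgfb, 6 of 8 were high enough to be tested, 4 fell (Rdh7, Aldh1a1, Lrat and Bco1) and 1 rose (Rbp2), where 29.3% of all genes were lower and 27.4% higher. The 5 BMP comparisons share their 4 control samples.

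With BMP3, 0 of 8 genes changed, and 0% of all genes were called higher and 0% lower by limma (110 genes had an unadjusted p under 0.05, edgeR called 0 and DESeq2 called 1). The log2 changes of the 8 genes with BMP3 lay between -0.33 and 0.04. The median log2 change of the 8 genes was -2.09 under BMP2 (-0.03 over all genes tested), 1.66 under BMP4 (0.04), -0.67 under BMP5 (-0.03), -0.71 under BMP7 (-0.05) and -0.19 under BMP3 (0.01). For the 6 tested with Tgfb it was -1.27 (-0.04 over all genes). Changes here are differences of log2(value + 1), tested with limma, and p-values were adjusted by the Benjamini-Hochberg method across the genes of the fit. The added 1 shrinks the change of genes that are low in a group, with Tgfb those of Bco1, Lrat and Rdh7. The size of their Tgfb changes, and the Tgfb median, cannot be compared with those in the BMP table.

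**Figure D1:**
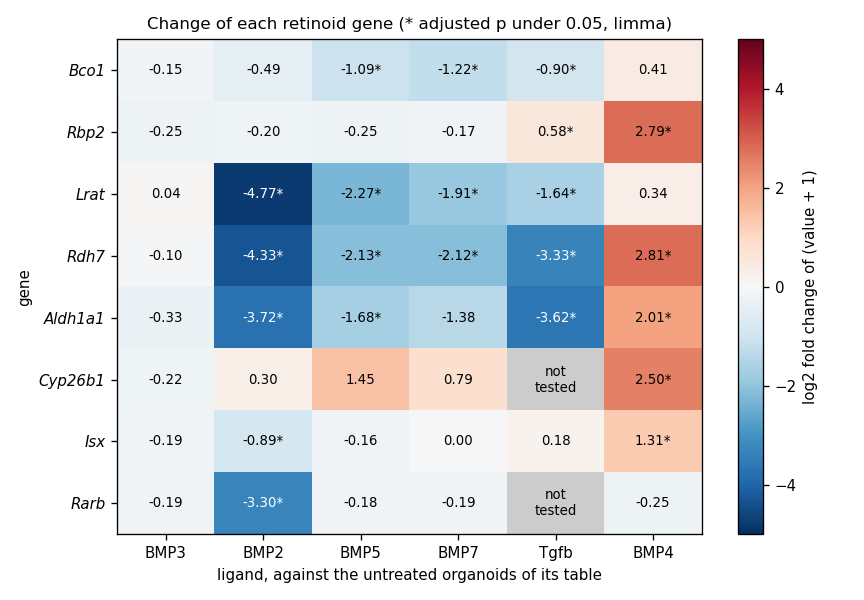
Log2 fold change of (value + 1) of each gene (rows) with each ligand against the untreated organoids of its table (columns), in blue where lower and red where higher; an asterisk marks an adjusted p under 0.05 and grey a gene too low to test. BMP2 shows 5 falls and BMP4 5 rises, and Rdh7 and Aldh1a1 are lowest with BMP2 or Tgfb and highest with BMP4. The added 1 shrinks changes of low genes, in the Tgfb column those of Bco1, Lrat and Rdh7.

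Values in the BMP table are read counts per gene after division by a size factor of the sample, called normalized counts below. Recovered depth was 21358620 to 24784834 reads per sample. The sum of normalized counts ran from 19250800 to 20518900 in controls, from 26268600 to 29004600 with BMP2 and from 25574500 to 26979300 with BMP4. Scaling every sample to the same total moved the median log2 change of all genes to -0.49 with BMP2 and to -0.35 with BMP4. In a bulk sample, fewer cells of a type and less RNA per cell cannot be told apart. The 7 enterocyte markers (Alpi, Sis, Apoa1, Apoa4, Fabp1, Fabp2 and Vil1) summed to 56630 to 102270 normalized counts in controls and to 399600 to 466900 with BMP4, where 7 of 7 rose. With BMP2 they summed to 54070 to 119030 (2 higher and 2 lower), with BMP5 to 49110 to 88850 (1 and 2) and with BMP7 to 47160 to 89850 (1 and 3). The 4 crypt stem cell markers (Lgr5, Olfm4, Ascl2 and Smoc2) summed to 95738 to 120015 in controls, 135 to 678 with BMP2, 1779 to 3475 with BMP4, 24949 to 72914 with BMP5 and 21589 to 25853 with BMP7. Of these 4 markers, 4 were called lower with BMP2, 4 with BMP4, 3 with BMP7 and only 1 with BMP5, and 0 were called higher. None of the enterocyte or stem markers was at 0 throughout a group. Of 3 Paneth cell markers, 3 fell with BMP2 (73880 to 92970 in controls, 29050 to 75380 with BMP2). Of 3 goblet cell markers, 2 rose with BMP4 (17630 to 34000 in controls, 60320 to 113890 with BMP4), while with BMP2 1 rose and 1 fell. Of 3 tuft cell markers, 2 rose with BMP2 (465 to 575) and 2 with BMP7 (326 to 389), from 249 to 294 in controls, while with BMP5 1 rose and with BMP4 1 rose and 1 fell. Of 3 enteroendocrine markers, 2 rose with BMP2 and 1 with BMP4. Mesenchymal markers (4 of 5 found) were too low to test and summed to 33.3 to 54.2 normalized counts with BMP2 and to 0.826 to 25.7 in controls, without overlap. The part of these cell type markers in the changes below was not tested.

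Bco1 (ENSMUSG00000031845), the carotene-cleaving enzyme, fell with BMP5, BMP7 and Tgfb. Its normalized counts were 76.4, 63.9, 57 and 89.6 in the controls (mean 71.7 ± 14.4, SD, n = 4), 35, 28.7 and 34.7 with BMP5 (32.8 ± 3.55, n = 3) and 29.9, 47.4 and 18.3 with BMP7 (31.9 ± 14.6, n = 3). All BMP5 and BMP7 samples lay below every control. The log2 change was -1.09 with BMP5 (SE 0.279, limma adjusted p = 0.00714) and -1.22 with BMP7 (SE 0.279, adjusted p = 0.00243). With BMP2 the counts were 52.2, 56.3, 35.4 and 60, which overlapped the controls (log2 change -0.49, adjusted p = 0.0937). With BMP4 they were 113, 87.8 and 83.8, also overlapping the controls (0.41, adjusted p = 0.212). In the TGFb table Bco1 went from 2.28, 3.60 and 1.88 TPM to 0.953, 0.860 and 0.840 TPM with Tgfb, without overlap (log2 change -0.90, SE 0.211, limma adjusted p = 0.0113). At these low TPM the 1 added before the log shrinks the change.

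Rbp2 (ENSMUSG00000032454), the cellular retinol carrier of the enterocyte, rose strongly with BMP4. It had 3450, 3620, 9280 and 7610 normalized counts in controls (replicates II, III, VI and IV; mean 5990 ± 2916, SD, n = 4) and 36600, 35100 and 41500 with BMP4 (37733 ± 3347, n = 3). The lowest BMP4 sample was well above the highest control, and the log2 change was 2.79 (SE 0.408, limma adjusted p = 8.23e-06). With BMP2 it had 4410, 3960, 7260 and 3990 counts, with BMP5 3660, 3070 and 8560, and with BMP7 3700, 3730 and 8320. Those 3 groups overlapped the controls throughout, with log2 changes of -0.20, -0.25 and -0.17 (adjusted p = 0.644, 0.698 and 0.785). With Tgfb, Rbp2 went from 1088, 877 and 1207 TPM to 1409, 1340 and 2029 TPM, and every Tgfb sample lay above every control (log2 change 0.58, SE 0.197, limma adjusted p = 0.0449). That call was lost in 5 of 6 fits that left out 1 sample: adjusted p was 0.134 without control II, 0.0913 without Tgfb III, 0.0886 without control I, 0.0587 without Tgfb I and 0.0509 without control III. It was also lost with no filter on low genes (adjusted p = 0.107).

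**Figure D2:**
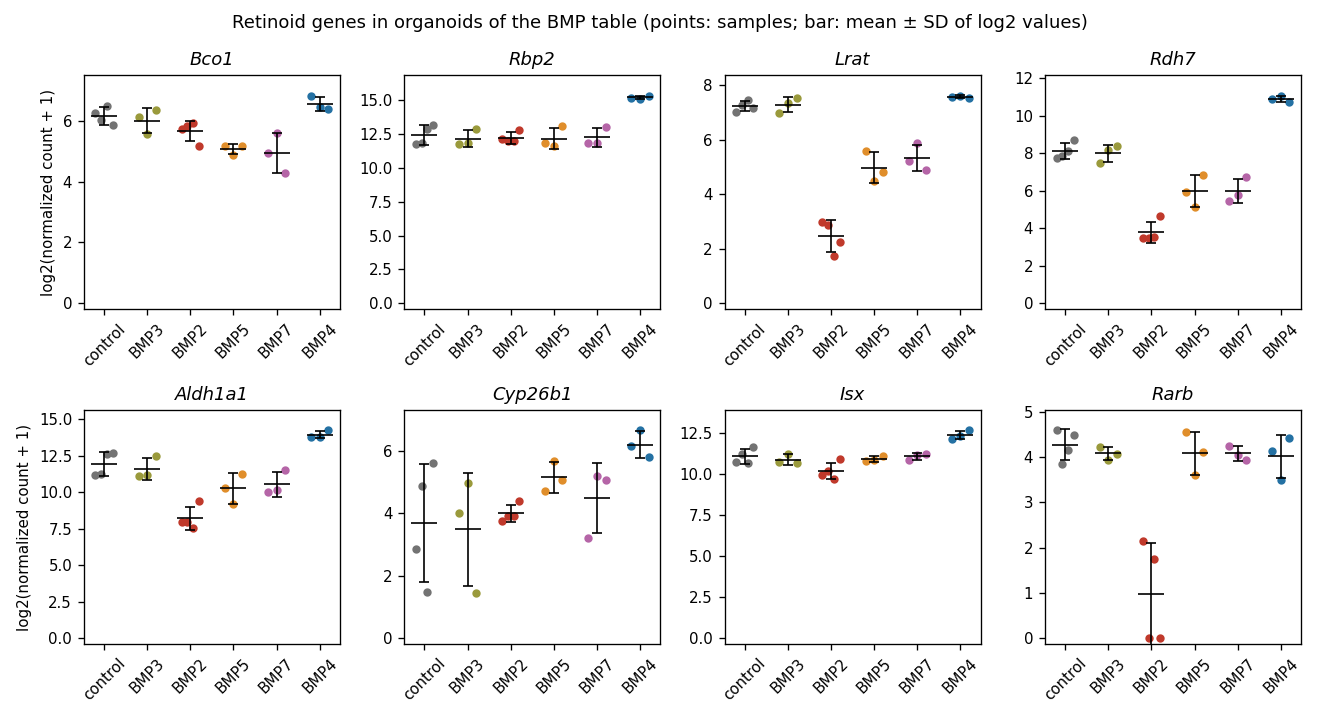
Each point is 1 sample of the BMP table, as log2(normalized count + 1) on the vertical axis, for the 8 genes in 6 groups; bars are the mean and SD of the log2 values. Rbp2, Rdh7, Aldh1a1 and Isx with BMP4 lie above every control, and Lrat, Rdh7, Aldh1a1 and Rarb with BMP2 lie below every control.

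Lrat (ENSMUSG00000028003), which makes retinyl esters, showed the largest fall of the 8 genes with BMP2. Its normalized counts were 129, 155, 143 and 176 in controls (151 ± 19.9, SD, n = 4) and 6.81, 6.39, 3.8 and 2.35 with BMP2 (4.84 ± 2.13, n = 4), with a wide gap between the groups. The log2 change was -4.77 (SE 0.283, limma adjusted p = 2.66e-11). The BMP2 group rested on 16 reads against 703 in the controls, a ratio that was 31.1-fold lower with a 95% interval from 19.0 to 54.7 for counting error only. BMP5 (47.5, 21.3 and 27.4 counts) and BMP7 (36.3, 57.4 and 28.9) lay between the BMP2 samples and the controls and overlapped neither. Their log2 changes were -2.27 (SE 0.305, limma adjusted p = 2.42e-05) and -1.91 (SE 0.305, adjusted p = 0.000101). With BMP4, Lrat had 191, 196 and 184 counts. All of these were above the highest control, but the log2 change of 0.34 did not pass the test (limma adjusted p = 0.338), and scaling to the same total turned it to -0.05. With Tgfb, Lrat went from 2.64, 2.54 and 2.16 TPM to 0.154, 0.040 and 0.118 TPM (log2 change -1.64, SE 0.179, limma adjusted p = 0.000435).

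Rdh7 (ENSMUSG00000040134), a microsomal retinol dehydrogenase, had the widest range of group means on the log2 scale among the 8 genes. It had 213, 233, 420 and 279 normalized counts in controls (286 ± 93.4, SD, n = 4), 10.2, 10.2, 24 and 10.6 with BMP2 (13.8 ± 6.84, n = 4) and 1930, 2170 and 1740 with BMP4 (1947 ± 215, n = 3). The 3 groups did not overlap, with a log2 change of -4.33 with BMP2 (SE 0.355, limma adjusted p = 2.18e-09) and of 2.81 with BMP4 (SE 0.383, adjusted p = 3.65e-06). With BMP5 (61, 34.3 and 114 counts) and BMP7 (43.6, 54.7 and 104) every sample was below every control. Their log2 changes were -2.13 (SE 0.383, limma adjusted p = 0.00041) and -2.12 (SE 0.383, adjusted p = 0.000332). With Tgfb it went from 18.9, 17.0 and 18.1 TPM to 0.745, 0.986 and 0.920 TPM (log2 change -3.33, SE 0.0948, limma adjusted p = 3.71e-06). Rdh7 has close copies (Rdh1, Rdh9, Rdh16 and Rdh19), so reads may be split between them and its values are uncertain to that extent.

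Aldh1a1 (ENSMUSG00000053279), the retinal dehydrogenase that makes retinoic acid, followed a similar order. It had 2340, 2400, 6430 and 6190 normalized counts in controls (4340 ± 2277, SD, n = 4), 251, 243, 654 and 184 with BMP2 (333 ± 216, n = 4) and 14100, 14100 and 19100 with BMP4 (15767 ± 2887, n = 3). These groups did not overlap, with a log2 change of -3.72 with BMP2 (SE 0.495, limma adjusted p = 1.62e-06) and of 2.01 with BMP4 (SE 0.535, adjusted p = 0.00285). With BMP5 it had 1240, 585 and 2440 counts, and the highest of these overlapped the controls (log2 change -1.68, SE 0.535, limma adjusted p = 0.0267). That call was lost without BMP5 III (adjusted p = 0.181), without control IV (0.0752) or without control VI (0.0807). With BMP7 it had 1010, 1110 and 2950 counts, and the log2 change of -1.38 did not pass the test (SE 0.535, limma adjusted p = 0.057). With the replicate number as a block it did (adjusted p = 0.0045), and within the same number all 3 BMP7 samples were lower, by log2 differences of -1.21 to -1.11. With Tgfb it went from 134, 128 and 161 TPM to 8.84, 8.52 and 15.0 TPM (log2 change -3.62, SE 0.217, limma adjusted p = 3.9e-05). Aldh1a7 is a close copy of Aldh1a1, and reads may be split between them.

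**Figure D3:**
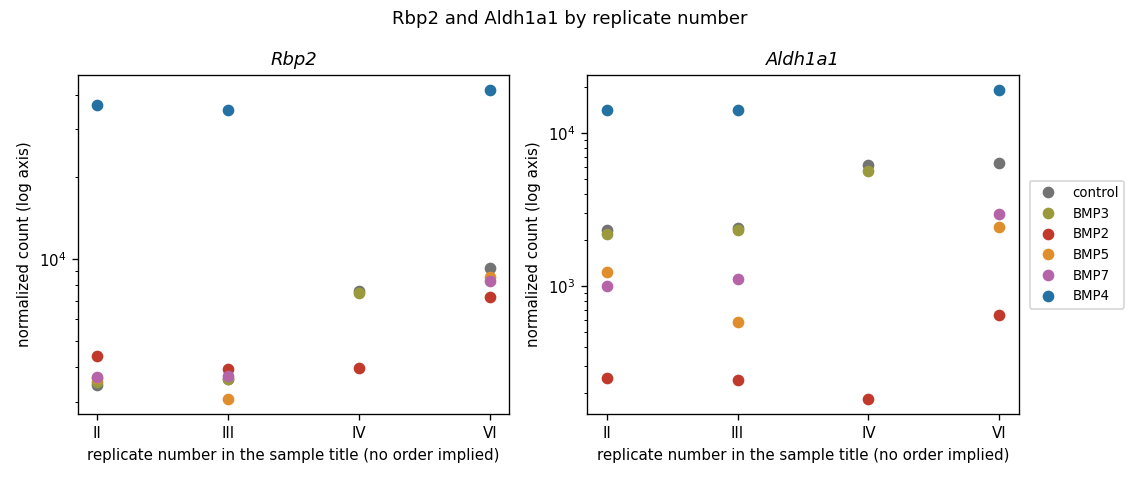
Normalized counts of Rbp2 and Aldh1a1 on a log axis, by the replicate number in the sample title, coloured by ligand. In controls, BMP3, BMP5 and BMP7 both genes are higher in numbers IV and VI than in II and III, and Aldh1a1 with BMP2 lies below all other samples of its number.

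Rbp2 and Aldh1a1 varied with the replicate number as well as with the ligand. Rbp2 had 3450 and 3620 normalized counts in controls II and III and 9280 and 7610 in controls VI and IV. Within a number, Rbp2 differed from its control by log2 values of -0.24 to 0.09 with BMP5, of -0.16 to 0.10 with BMP7 and of 2.16 to 3.41 with BMP4. What the numbers stand for is not given in the labels.

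Cyp26b1 (ENSMUSG00000063415), the retinoic acid hydroxylase, was low and variable. Its normalized counts were 6.22, 28.2, 47.9 and 1.77 in controls (21.0 ± 21.3, SD, n = 4) and 69.9, 100 and 55 with BMP4 (75.0 ± 22.9, n = 3), so that every BMP4 sample was above every control. The log2 change was 2.50 (SE 0.839, limma adjusted p = 0.0138), and the call was lost without BMP4 III (adjusted p = 0.0522) or without control IV (0.0546). Control IV, the lowest control, had no BMP4 sample of its number. Within a number, BMP4 was higher by log2 differences of 3.30 (II), 1.79 (III) and only 0.20 (VI). BMP2 (12.5, 14.1, 20.2 and 14.1 counts), BMP5 (25.1, 50 and 32.8) and BMP7 (8.17, 35.5 and 32.7) overlapped the controls. Their adjusted p-values were 0.74, 0.224 and 0.496 with limma. In the TGFb table Cyp26b1 had 0.328, 0.117 and 0.207 TPM in controls and 0.747, 0.410 and 0.413 TPM with Tgfb, without overlap, and was below the level needed for testing.

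Isx (ENSMUSG00000031621), the homeobox repressor of carotenoid uptake genes, rose with BMP4 and fell with BMP2. It had 1740, 2440, 3240 and 1630 normalized counts in controls (2263 ± 744, SD, n = 4), 4620, 5150 and 6560 with BMP4 (5443 ± 1003, n = 3) and 979, 1190, 1930 and 854 with BMP2 (1238 ± 482, n = 4). The BMP4 samples were above every control, and 1 BMP2 sample overlapped the controls. The log2 change was 1.31 with BMP4 (SE 0.253, limma adjusted p = 0.000175) and -0.89 with BMP2 (SE 0.234, adjusted p = 0.00223). With BMP5 (1780, 1850 and 2220 counts) the log2 change was -0.16 (limma adjusted p = 0.679). With the replicate number as a block the log2 change with BMP5 was -0.30 (limma adjusted p = 0.035). Within a number, the log2 differences with BMP5 were 0.03 (II), -0.40 (III) and -0.55 (VI). With BMP7 (1840, 2270 and 2460 counts) the log2 change was -0.0014 (limma adjusted p = 0.997). With Tgfb, Isx went from 49.1, 36.1 and 54.4 TPM to 50.3, 51.5 and 54.5 TPM, and the groups overlapped (log2 change 0.18, limma adjusted p = 0.349).

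Rarb (ENSMUSG00000017491), the retinoic acid receptor gene whose promoter is shown above with its DR5, fell with BMP2. It had 23.1, 13.3, 21.5 and 16.9 normalized counts in controls (18.7 ± 4.46, SD, n = 4) and 3.41, 0, 0 and 2.35 with BMP2 (1.44 ± 1.72, n = 4), with no overlap. The log2 change was -3.30 (SE 0.43, limma adjusted p = 1.22e-06). The BMP2 group held 5 reads against 87 in the controls, a ratio that was 12.3-fold lower with a 95% interval from 5.08 to 38.9 for counting error only. BMP3 (17.8, 14.4 and 15.8 counts), BMP4 (16.6, 10.3 and 20.3), BMP5 (22.4, 11.1 and 16.4) and BMP7 (18.1, 15.5 and 14.4) overlapped the controls. In the TGFb table Rarb was at 0.107, 0.036 and 0.068 TPM in controls and at 0.065, 0.036 and 0.020 TPM with Tgfb, and was too low to be tested.

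**Figure D4:**
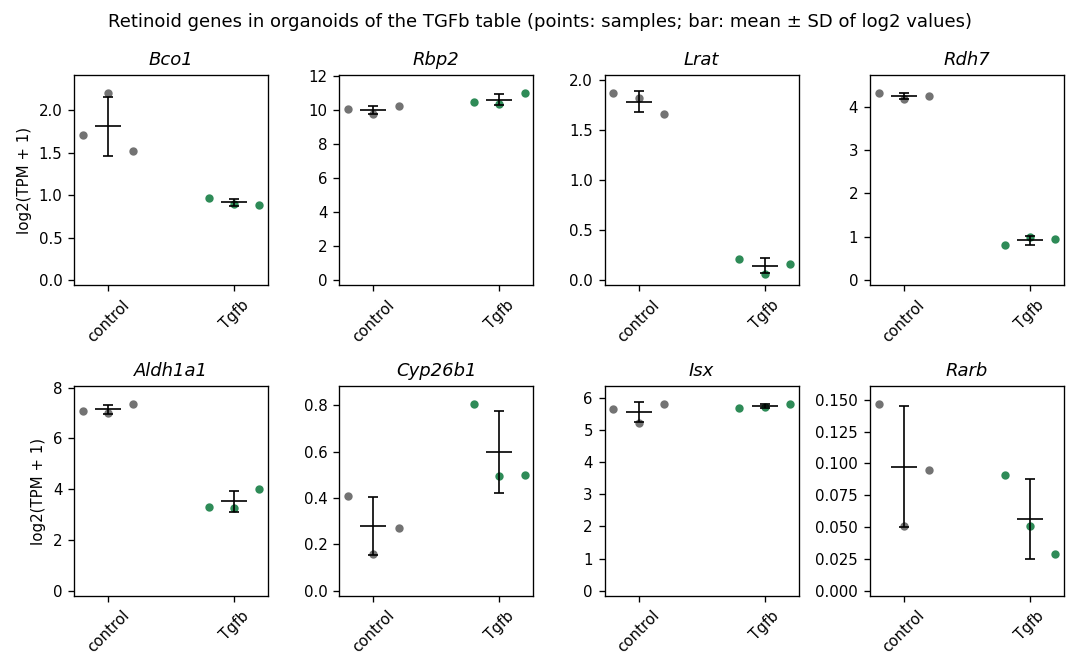
Each point is 1 sample of the TGFb table, as log2(TPM + 1) on the vertical axis, for the 8 genes in untreated and Tgfb-treated organoids; bars are the mean and SD of the log2 values. Bco1, Lrat, Rdh7 and Aldh1a1 are lower in all 3 Tgfb samples, while Rbp2 is higher.

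In the TGFb table the 7 enterocyte markers summed to 4487 to 6360 TPM in controls and 3506 to 4421 TPM with Tgfb (4 higher and 3 lower), and the 4 stem cell markers to 2434 to 2881 TPM and 138 to 143 TPM. Mesenchymal markers summed to at most 0.807 TPM, and their part and that of the other markers was not tested.

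The ligands given at the same dose and time were compared directly in 6 pairs. All 8 genes were lower with BMP2 than with BMP4, without overlap, where 66.8% of all genes differed (33.4% lower with BMP2). The share of all genes without overlap was not counted. The log2 difference was -7.13 for Rdh7 (SE 0.383, limma adjusted p = 1.54e-11), -5.73 for Aldh1a1, -5.11 for Lrat, -3.04 for Rarb, -2.99 for Rbp2, -2.21 for Cyp26b1, -2.19 for Isx and -0.90 for Bco1. The Cyp26b1 difference, with a limma adjusted p of 0.027, was lost without BMP2 II (0.0516), BMP4 II (0.0565) or BMP4 III (0.0872). Lrat, Rdh7, Aldh1a1, Isx and Rarb were lower with BMP2 than with BMP5, where 65% of all genes differed (32.8% lower with BMP2). They were also lower with BMP2 than with BMP7, where 62.8% differed (31.4% lower with BMP2). For Isx against BMP5 the limma adjusted p was 0.0183, and it was 0.051 without BMP2 II, 0.065 without BMP2 IV and 0.0706 without BMP5 VI.

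Bco1 was the exception in these pairs, with 51.0 ± 10.9 normalized counts with BMP2 (SD, n = 4) and 31.9 ± 14.6 with BMP7 (SD, n = 3). It was higher with BMP2 than with BMP7 by 0.73 on the log2 scale (limma adjusted p = 0.0291). That call was lost with edgeR (adjusted p = 0.0725), in a fit of these groups alone (0.0944), with the same total (0.313) and without BMP7 VI (0.226). It was also lost without BMP2 II (0.0514), BMP2 III (0.0635), BMP2 IV (0.0722) or BMP7 II (0.0606), and with no filter (0.0543).

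BMP4 gave higher values than BMP5 and than BMP7 for Bco1, Rbp2, Lrat, Rdh7, Aldh1a1 and Isx, 6 of 8 in each pair. Of all genes, 60.1% and 59.8% differed, and 28.4% were higher with BMP4 in each pair. The Rdh7 difference was 4.94 against BMP5 and 4.92 against BMP7 on the log2 scale. Cyp26b1 was higher with BMP4 than with BMP7 by 1.72 (limma adjusted p = 0.108), and with the replicate number as a block the adjusted p was 0.0214. Between BMP5 and BMP7, 0 of 8 genes passed limma's test, where 0.0136% of all genes differed (347 genes had an unadjusted p under 0.05, and edgeR called 4 and DESeq2 23 genes). The 8 log2 differences between BMP5 and BMP7 ran from -0.36 to 0.67, which does not show that the ligands act alike.

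The rest of the pathway was read from a list of 44 genes, of which 33 could be tested in the BMP table and 28 in the TGFb table. With BMP2, 9 of 33 rose and 19 fell, where 36.8% of all genes were higher and 38.4% lower (median log2 change -0.94, against -0.03 over all genes). With BMP4, 19 rose and 3 fell, where 33.7% of all genes were higher and 31.4% lower (1.03, against 0.04). BMP5 gave 6 rises and 9 falls, where 16.5% of all genes were higher and 9.87% lower (-0.25). BMP7 gave 6 rises and 8 falls, where 19.2% were higher and 13.2% lower (-0.26), and BMP3 gave none of either. With Tgfb, 7 of 28 rose and 16 fell, where 27.4% of all genes were higher and 29.3% lower (-0.34, against -0.04). Among 15 retinol dehydrogenases and reductases, 9 fell and 3 rose with BMP2 (38.4% of all genes lower and 36.8% higher), and 8 rose and 0 fell with BMP4 (33.7% higher and 31.4% lower).

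Some genes of the list rose with BMP2, although more of them fell. Aldh1a3, another retinal dehydrogenase, had 154, 92.9, 136 and 71 normalized counts in controls and 42300, 63500, 43800 and 32700 with BMP2 (log2 change 8.66, SE 0.344, limma adjusted p = 3.71e-13). It was also higher with BMP5 (1530, 4530 and 4780 counts, log2 change 4.88) and with BMP7 (4230, 3880 and 5950, log2 change 5.40). No sample of these 3 groups overlapped the controls. With BMP4, Aldh1a3 was also called higher, with 323 to 718 counts and without overlap (71 to 154 in controls). Stra6, the membrane receptor for retinol-binding protein, was at 0.888, 0, 1.65 and 0.887 normalized counts in controls, 4 reads in all. It rose to means of 76.2 with BMP2, 106 with BMP5 and 106 with BMP7. For BMP2 that is an 88.0-fold ratio with a 95% counting interval from 33.9 to 326. Rdh10, a retinol dehydrogenase needed in the embryo and chosen for the BMP table after its values were seen, had a mean of 2123 normalized counts in controls and 27550 with BMP2 (log2 change 3.72, limma adjusted p = 2.01e-12).

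**Figure D5:**
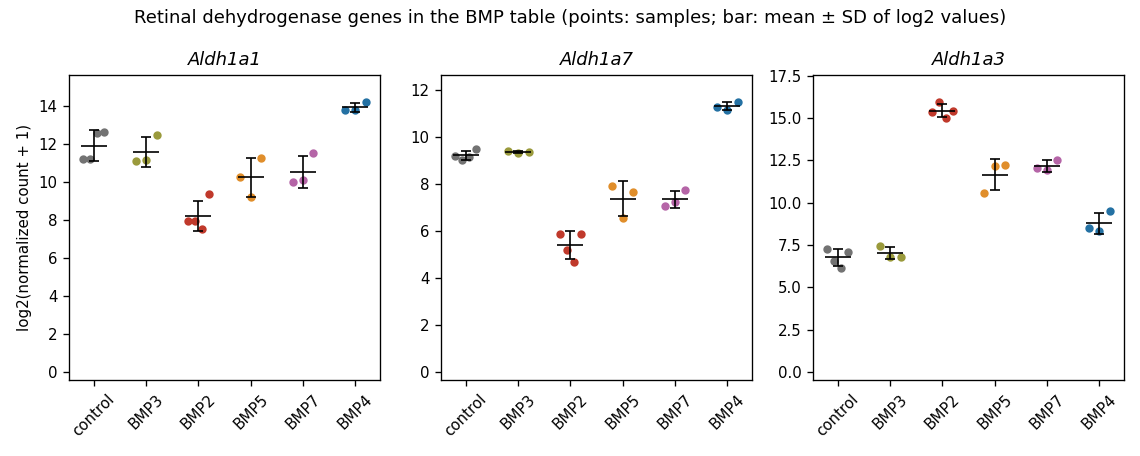
Each point is 1 sample of the BMP table, as log2(normalized count + 1), for Aldh1a1 and for the 2 genes listed as retinal dehydrogenases that were high enough to test. Bars are the mean and SD of the log2 values. With BMP2, Aldh1a1 and its close copy Aldh1a7 have their lowest mean and Aldh1a3 its highest.

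Within the list, which leaves out the 8 genes above, those that fell most with BMP2 were Rbp7, a retinol-binding protein (91.3 to 1.53 normalized counts, log2 change -5.20), Stra6l (581 to 25.8, -4.47) and Aldh1a7 (597 to 44.2, -3.80). Rbp7 and Aldh1a7 also fell with BMP5 (-3.24 and -1.83) and BMP7 (-3.38 and -1.87), as did the alcohol dehydrogenase Adh7 (-1.72 and -1.63). With BMP4 the largest rises within the list were in Adh4, an alcohol dehydrogenase (388 to 4473 normalized counts, log2 change 3.64), Rdh9 (14.1 to 98.2, 3.36) and Bco2, which cleaves carotenoids off centre (465 to 3003, 2.79). The Rdh9 call, with a limma adjusted p of 0.0219, was lost with DESeq2 (0.183), with a pseudocount of 0.1 (0.0839), without BMP4 VI (0.078) and without control III (0.0863). Stra6l also fell with BMP4 (-3.35), as did Fabp5 (-0.56) and the receptor gene Rxrb (-0.28). The Fabp5 call, with a limma adjusted p of 0.0249, was lost in 4 fits without 1 sample (BMP4 II 0.0922, BMP4 III 0.165, control II 0.0536 and control III 0.0503). The Rxrb call was lost without BMP4 III (0.0734). With Tgfb, Aldh1a3 went from 0.373 to 80.7 TPM and Rdh10 from 15.0 to 166, while Rbp7 went from 19.8 to 0.183, Aldh1a7 from 17.8 to 1.32 and Adh4 from 32.9 to 6.25 TPM. Aldh1a1 and the genes listed as retinal dehydrogenases thus changed in unlike ways. Under BMP2 and Tgfb, Aldh1a3 was higher and Aldh1a1 and its close copy Aldh1a7 were lower.

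A list of 10 textbook retinoic acid target genes, which includes Rarb and Cyp26b1, gave 6 tested in the BMP table. Some of its genes, Stra6 and Dhrs3 included, are also in the list of 44 genes above, so its counts are not separate from those. With BMP2, 2 rose (Stra6 among them) and 3 fell (Rarb, Dhrs3 and Tgm2), where 36.8% of all genes were higher and 38.4% lower. With BMP4, 3 rose (Cyp26b1 and Dhrs3 among them) and Tgm2 fell, where 33.7% of all genes were higher and 31.4% lower. With BMP5 and with BMP7, 2 rose (Stra6 among them) and none fell. Of all genes, 16.5% were higher and 9.87% lower with BMP5, and 19.2% and 13.2% with BMP7. With Tgfb, 3 of 4 tested rose (Stra6 and Tgm2 among them) and none fell, where 27.4% of all genes were higher and 29.3% lower. The list's members did not move in 1 direction under BMP2 or BMP4.

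Across the 20 samples of the BMP table, Rdh7 and Aldh1a1 had a Pearson r of 0.975 on the log2 scale, and Lrat and Rdh7 one of 0.890. These r values describe samples that share ligand groups and replicate numbers. The genes most like Rdh7 were Arg2, Adh1 and Gstm4 (r = 0.991 each), and those most like Aldh1a1 were Ugt2b5 (0.991), Mme (0.988) and Mgst2 (0.987). For Rbp2 they were Cyp2j6 (0.976), Cndp2 (0.975) and Gpd1 (0.973), and for Lrat they included Pnkd (0.980) and Prlr (0.980). For Isx they were Adck2 (0.962), Mcts1 (0.961) and Ckb (0.950), and for Rarb Epb42 (0.954), Dhx35 (0.926) and Mcoln2 (0.923). Bco1 and Cyp26b1 had less close matches, with Gm37701 (0.865), Kcnk5 (0.857) and Zfp942 (0.842) for Bco1 and Kdm3a (0.835), Gys1 (0.822) and Tc2n (0.788) for Cyp26b1.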

How the data were processed

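Per the submitters' processing notes, Trim Galore, Salmon, DESeq2 and the GRCm39 build were used, with no versions given. Per the labels, libraries came from a KAPA mRNA kit and were sequenced in more than 1 run, and samples are not assigned to runs, so run and group cannot be told apart. The signal values deposited in the BMP table are read counts per gene over a size factor of the sample, as the values themselves show: of 180721 low values (up to 20 reads), 100% were whole multiples of 1 step within 0.1 read. Values deposited for Tgfb and for mesenchymal cells are TPM, since each column sums to 1000000. TPM keeps no depth, so depth is unknown there.

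Groups came from the labels, and 0 columns were unmapped. limma 3.58.1 (R 4.3.3) was run with an intensity trend on log2(value + 1), two-sided, separately per table, with all 6 BMP-table groups in 1 fit. Genes needed a mean of at least 10 normalized counts (14746 genes) or 1 TPM (12959 genes). The threshold on adjusted p was 0.05. A fold change on this scale understates the change of low genes. Alternatives were edgeR 4.0.16 and DESeq2 1.42.0 on the recovered whole reads, other pseudocounts, filters and scalings, a replicate block and leaving out each sample. For BMP2 against control, edgeR on the recovered reads called 11106 genes and limma on the log2 values 11077. Intervals cover counting error only, since PCR copies cannot be told from molecules here. The limma fit was tested on simulated data in which few genes were changed. That test does not cover comparisons in which most genes were called, such as those of BMP2 and BMP4. No pair of replicates agreed within sampling noise (the lowest chi-square per degree of freedom was 4.30).

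Deviations from group means of same-numbered samples correlated with r of 0.16 to 0.55 in every pair between controls and BMP3, BMP4, BMP5 or BMP7. These numbers were therefore taken as pairs, and those of BMP2 and Tgfb were not. The main limma fit left the replicate number out, so p-values not marked as blocked are unpaired. Replicate numbers entered only in the replicate block and in the differences within a number. BMP3 had no number VI, and BMP4, BMP5 and BMP7 had no number IV, so the unpaired fit compared groups with unlike numbers. Among ligands, numbers paired BMP5 with BMP2, BMP4 and BMP7, and BMP4 with BMP7.

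All 8 genes are named. Of the genes of the pathway list called in a comparison with untreated organoids, up to 3 that rose most and 3 that fell most are named. For each of the 8 genes, the 3 genes of highest correlation (mean of at least 50 normalized counts) are named. Some genes taken by this rule are not reported here. The genes and lists were chosen with earlier results of these data known. Promoter sequences are from RefSeq (GRCm38.p6), another build than that of the files, and are used only for their letters and RefSeq position. Rdh7 and Aldh1a1 have more than 1 RefSeq start, and the start near the principal GENCODE transcript was used.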

Additional observations from a re-analysis of the deposited data

Results flagged for a closer look

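In 42 sets of 4 values examined, each 1 gene in the controls or with BMP2, 4 held a sample far from the others. Chance flags about 1 in 20 independent sets, but these sets share the same samples and are not independent. In all 4 that sample was BMP2 VI: Rbp2 at 7260 normalized counts (the others 3960 to 4410), Rdh7 at 24 (10.2 to 10.6), Aldh1a1 at 654 (184 to 251) and Rbp7 at 2.53 (1.14 to 1.28).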

How the results depend on the processing

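Of 94 changes of the 8 genes tested in 12 comparisons, 53 were called, and none of these reversed. Of the 53, 47 kept their direction and call under every alternative in which they were tested. Stricter filters left out low genes. For Tgfb, edgeR, DESeq2, the same total and a fit of the compared groups alone were not run. Of the 41 not called, 8 passed the threshold somewhere and 25 changed sign somewhere. The 60 pathway changes taken by the naming rule were all called because the rule took only called genes, and among these the largest changes. None of the 60 reversed, and 56 kept their call wherever they were tested, which says nothing of the rest of the list.

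Sign changes of uncalled log2 values were as follows. Cyp26b1 with BMP2 was 0.30, and -0.46 with DESeq2, -0.52 with edgeR, -0.12 with the same total and -0.45 to 0.94 when 1 sample was left out. Lrat with BMP4 was -0.054 with the same total. Rarb was 0.25 (BMP4 against BMP5) and 0.055 (BMP4 against BMP7) with quantile normalization. Rbp2 for BMP2 against BMP5 was 0.050, and -0.046 with DESeq2, -0.11 with edgeR, -0.38 with quantile normalization and -0.37 with the same total. When 1 sample was left out, Rbp2 ran from -0.24 to 0.50 (BMP2 against BMP5), -0.24 to 0.35 (BMP2 against BMP7), -0.42 to 0.055 (BMP2 against control), -0.70 to 0.039 (BMP5) and -0.55 to 0.091 (BMP7). Isx ran from -0.30 to 0.026 (BMP5) and -0.14 to 0.19 (BMP7). Rarb ran from -0.45 to 0.0045 (BMP4), -0.41 to 0.064 (BMP5), -0.32 to 0.19 (BMP4 against BMP5) and -0.26 to 0.19 (BMP4 against BMP7). For BMP3 against control the ranges were -0.32 to 0.070 (Bco1), -0.97 to 0.79 (Cyp26b1), -0.37 to 0.0029 (Isx), -0.073 to 0.20 (Lrat), -0.60 to 0.0074 (Rbp2) and -0.28 to 0.16 (Rdh7). For BMP5 against BMP7 they were -0.81 to 0.22 (Aldh1a1), -0.20 to 0.46 (Bco1), -0.22 to 0.25 (Rarb), -0.54 to 0.30 (Rbp2) and -0.45 to 0.40 (Rdh7). In that pair Rarb was also -0.19 with quantile normalization, and Rdh7 0.058 with DESeq2, 0.041 with edgeR and 0.013 with the same total. The cause was not tested.

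With the replicate block, Cyp26b1 for BMP2 against BMP7 was 0.022 and Rbp2 for BMP2 against BMP5 was -0.033, and with BMP3 Cyp26b1 was 0.045, Lrat -0.010 and Rdh7 0.095. Numbers did not pair BMP2 with controls (r from 0.02 to 0.42, 3 of 4 samples best with their own number) or Tgfb (r from 0.0040 to 0.07, 1 of 3). Under the block, calls over all genes went from 11077 to 11858 with BMP2 and from 7348 to 7613 with Tgfb, and rose likewise in the paired BMP5 (3884 to 5738) and BMP7 (4773 to 6689), where lower genes went from 1455 to 2593 and from 1940 to 3148. Bco1 with BMP2 had a blocked adjusted p of 0.0399. Beside the blocked values given with the results, the block changed no other call of the 8 genes.

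Counts over all genes moved most where few were called. BMP3 had 0 calls in limma, 1 with DESeq2, 2 in a fit of these groups alone and 0 to 1 without 1 sample. BMP5 against BMP7 had 2 calls, and 23 with DESeq2, 4 with edgeR, 4 with no filter, 4 with a pseudocount of 5, 6 with the replicate block, 1 with quantile normalization or the same total, 0 with a pseudocount of 0.1 or a mean of at least 50, and 0 to 9 without 1 sample. BMP5 against control had 3884 calls and 2517 to 4301 without 1 sample (2517 without BMP5 III, 2531 without BMP5 VI). With a mean of at least 10 TPM, 2 genes of the 8 were called with Tgfb in place of 5, since fewer were tested.

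Scaling moved the split of calls into higher and lower: BMP2 from 5420 and 5657 to 3601 and 7820 with the same total, BMP4 from 4964 and 4633 to 3080 and 6896, BMP5 from 2429 and 1455 to 2397 and 2413 with quantile normalization, and BMP7 from 2833 and 1940 to 2716 and 2938. Bco1 was called with BMP2 under the same total (adjusted p = 0.0046), with BMP4 under quantile normalization (0.0374) and for BMP2 against BMP5 with DESeq2 (0.0483), quantile normalization (0.00357) and without BMP2 VI (0.0269). Aldh1a1 with BMP7 was called with quantile normalization (0.0311), the same total (0.0409) and without BMP7 VI (0.0233), control II (0.0388) or control III (0.0439). Cyp26b1 was called in fits of the compared groups alone for BMP2 against BMP5 (0.0148), BMP4 against BMP5 (0.0261) and BMP4 against BMP7 (0.0223). Depth limits Rarb and Lrat with BMP2, which rest on 5 and 16 reads.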

Other observations

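In the third table, which holds 1 sample each of freshly isolated and of immortalised, sorted mesenchymal cells of the duodenum from a PdgfraH2BeGFP mouse, the same genes were present in another pattern. There were no replicates, so no difference was tested. Aldh1a1 was at 30.1 TPM in fresh and 106 TPM in immortalised cells. Rarb was at 18.4 TPM in fresh and 0.714 TPM in immortalised cells, and Lrat at 9.66 TPM in fresh cells and listed at 0 in immortalised cells. Cyp26b1 was at 0.991 and 1.70 TPM, and Bco1 at 0.819 and 0.177 TPM. Rbp2, Rdh7 and Isx were listed at 0 in both.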
